A study of Passer montanus with 72 samples.

Results

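The genes described here encode the subunits of the receptors for glutamate and GABA, the main excitatory and inhibitory transmitters of the brain. They were taken by name from the deposited table of counts per gene: the AMPA (GRIA), kainate (GRIK), NMDA (GRIN) and delta (GRID) receptor genes, the metabotropic glutamate receptor genes (GRM), the GABAA receptor genes (GABR) and the GABAB receptor genes (GABBR). Such names were carried by 40 of the 21957 genes listed, and 39 were kept, since 1 lies on the Z chromosome. The 39 genes comprised 16 ionotropic glutamate, 7 metabotropic glutamate, 14 GABAA and 2 GABAB receptor genes.

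AMPA, kainate and NMDA receptors are ion channels that glutamate opens, and their speed, calcium entry and placement depend on which subunits are combined. GABAA receptors are chloride channels built mostly from alpha, beta and gamma or delta subunits, and the alpha subunit sets much of how the channel is used. Metabotropic glutamate receptors and the GABAB receptor act through G proteins and often sit on the nerve terminal, where they limit transmitter release. In the striatum most neurons are themselves GABAergic and receive glutamate from the pallium, while the avian hippocampus is a pallial region with many glutamatergic neurons, known for its part in spatial memory.

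RNA was sequenced from 24 wild-caught Eurasian tree sparrows (Passer montanus) held in captivity, 11 labelled female and 13 labelled male. The 72 libraries are those of 3 tissues of every bird: striatum, the rostral part of the hippocampus and its caudal part, which the design text calls dorsal. The labels give no age, no treatment and no behavioral score per bird, so the comparisons were between regions and between the labelled sexes.

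Total counts ranged from 2629433 to 5323201 per library, with a median of 4071233. The striatum library of bird 11 had the fewest genes with a count, 7718. The counts of bird 260, labelled female, went against its label: CHD1W, a gene of the female-specific W chromosome, had 0 counts in its 3 libraries and at most 3 in those of the males. The other 10 birds labelled female had 121 to 205 counts in rostral hippocampus and 154 to 216 in striatum. In the sex comparisons bird 260 was kept among the birds labelled female. The striatum library of bird 6 also stood apart. Its summed level of 14 pallial glutamatergic neuron markers was 1373 CPM (counts per 1000000, scaled between libraries), against 265 to 414 in the other 23 striatum libraries and 3013 to 4259 in the 48 hippocampal libraries. Levels from bulk tissue do not tell fewer cells of a type from less RNA per cell.

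Of the 39 receptor genes, 34 had enough counts to be tested between regions. The other 5 were near the detection limit: GABRA6, an alpha subunit best known from the cerebellum, had 39 counts over all 72 libraries, GABRR1 and GABRR3, subunits best known from the retina, had 215 or fewer each, and the NMDA receptor genes GRIN2C and GRIN3B had 309 and 172. Per kilobase of the deposited gene length, GRIN1, the subunit that every NMDA receptor needs, and GRIA2, the AMPA subunit that limits calcium entry, held the highest mean levels in hippocampus. GRIN1 stood at 363 CPM per kilobase and GRIA2 at 418 over both hippocampal parts. In striatum GABRA5, an alpha subunit tied in mammals mainly to receptors outside synapses, came first at 679 CPM per kilobase, before GRIN1 at 612 and GRIA2 at 412. How well sparrow reads match each gene model may differ between genes, so the changes between regions below are firmer than this order.

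Striatum was compared with the mean of the hippocampal parts to find which receptor genes set these regions apart. In striatum GABRA5 and GRM4 were among the most raised, and GRM2 was the most lowered. Of the 34 genes tested, 27 passed an adjusted p of 0.05 (edgeR quasi-likelihood test with Benjamini-Hochberg adjustment, as throughout), 15 higher and 12 lower in striatum, against 64.3% of all 9754 genes tested, or 30.6% higher and 33.8% lower. The median log2 fold was 0.02 over the 34 genes and -0.03 over all genes. Of the 34, 11 passed with an absolute log2 fold of at least 1, where 15.4% of all genes did.

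Among the GABAA genes GABRA5 differed widely. It ran from 107 through a median of 294 to 584 CPM in hippocampus and from 1549 through 2588 to 3425 CPM in striatum. Every striatum library exceeded every hippocampal library. Its log2 fold was 3.09 ± 0.13 (SE; adjusted p = 3.43e-26; 24 of 24 birds), an 8.5-fold difference. GABRG3, a gamma subunit, was higher by a log2 fold of 0.65 ± 0.12 (adjusted p = 6.2e-06; 20 of 24 birds), with 8.54 to 42.0 CPM in striatum and 5.87 to 29.1 in hippocampus, so that its groups overlapped widely. Among smaller changes that passed, GABRB1 was higher, at a log2 fold of 0.52. GABRG1 at -0.49, GABRA2 at -0.49 and GABRB2 at -0.45 were lower. Of these, GABRB1 and GABRG1 passed only against the rostral part when each hippocampal part was compared singly. GABRG1 was lost against the mean of the parts without any 1 of birds 2, 4, 6, 7 and 20 (log2 fold -0.45 to -0.43). It changed sign with ependyma and choroid plexus markers as a covariate (0.11). GABRA4 was at -0.01 ± 0.09 (adjusted p = 0.946) and GABRD, the delta subunit of extrasynaptic receptors, at -0.28 ± 0.14 (adjusted p = 0.0775), and neither passed.

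**Figure D1:**
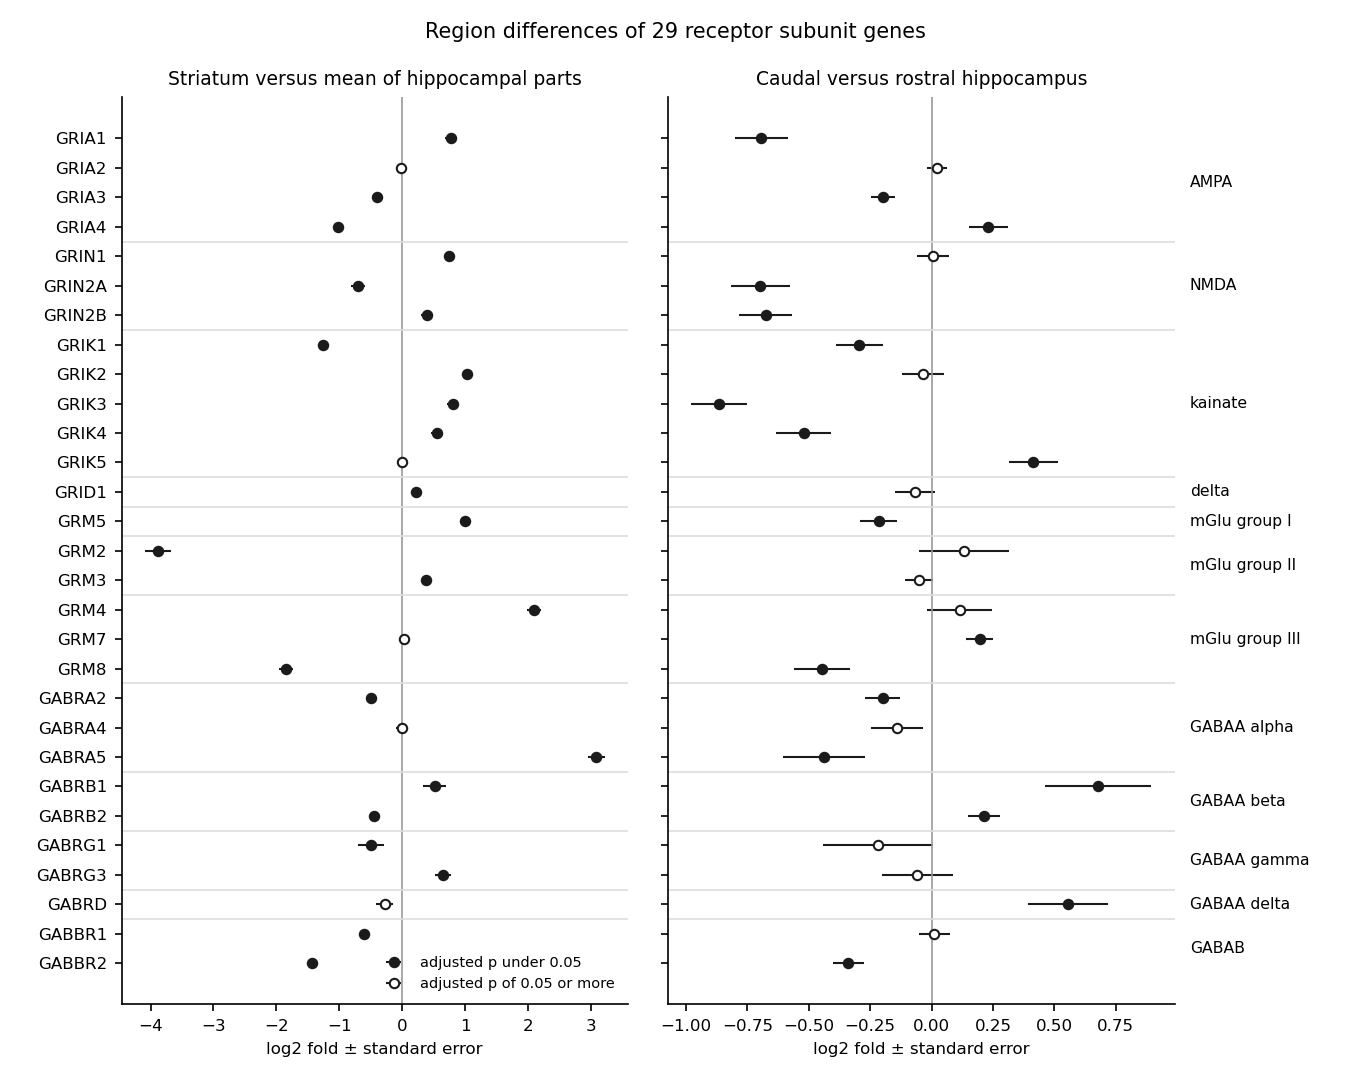
Log2 fold (x axis, ± standard error) of 29 receptor subunit genes, by family, for striatum against the mean of the hippocampal parts (left) and caudal against rostral hippocampus (right, narrower scale). Filled points passed an adjusted p of 0.05: 24 genes on the left, where GABRA5 lies above 3 and GRM2 near -4, and 18 on the right, all within 1 of 0.

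Both GABAB receptor genes, whose products form 1 receptor together, were lower in striatum. GABBR2 had 189.6, 284.5 and 413 CPM in the lowest, median and highest hippocampal library and 60.8, 106 and 161 CPM in striatum. The groups did not overlap, and bird 6 gave the highest striatum value. The log2 fold was -1.43 ± 0.06 (adjusted p = 5.14e-29; lower in 24 of 24 birds), and that of GABBR1 was -0.61 ± 0.06 (adjusted p = 3.27e-14; lower in 24 of 24 birds). GABBR1 ran from 109.8 to 233 CPM in hippocampus and from 61.1 to 139 in striatum, with overlap. GABRA5, GRM4 and GABBR2 were among the 4 receptor genes whose striatum and hippocampal libraries did not overlap at all, 3 higher and 1 lower, where 3.21% of all genes tested had no overlap, 2.05% higher and 1.16% lower. Without the striatum library of bird 6 GRM2 also had none, which made 5, against 3.71% of all genes.

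The metabotropic glutamate receptor genes split within groups II and III. GRM4, a group III receptor of nerve terminals, had 35.45, 186 and 397 CPM in the lowest, median and highest hippocampal library and 541, 803 and 939.7 CPM in striatum. The striatum libraries lay above all others (log2 fold 2.10 ± 0.11, adjusted p = 1.18e-23; 24 of 24 birds). GRM8, also of group III, went the other way, from 39.85, 73.3 and 130.3 CPM to 9.45, 17.7 and 65.2. Bird 6 gave that highest striatum value of GRM8, and the other 23 libraries reached 55.3 CPM at most. Only the highest striatum libraries reached the hippocampal range (log2 fold -1.84 ± 0.11, adjusted p = 1.51e-21; lower in 24 of 24 birds). GRM7, the last of the group, was at 0.04 ± 0.05 (adjusted p = 0.528).

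In group II, whose receptors also damp release, GRM2 had 34.25, 91.5 and 176 CPM in the lowest, median and highest hippocampal library and 0, 5.575 and 38.6 CPM in striatum. The highest striatum value came from bird 6, and the other 23 striatum libraries, at 11.9 CPM or less, lay below every hippocampal one. The log2 fold was -3.89 ± 0.21 (adjusted p = 8.97e-23; lower in 24 of 24 birds), and -4.04 when bird 6 was left out. GRM3, its relative in group II, which glia also express, was higher in striatum by 0.38 ± 0.05 (adjusted p = 1.16e-09; 24 of 24 birds). Of group I, whose receptors excite the postsynaptic cell, GRM5 was higher by 1.01 ± 0.06 (adjusted p = 8.79e-21; 23 of 24 birds; 155 to 312 CPM in hippocampus and 195 to 745 in striatum).

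**Figure D2:**
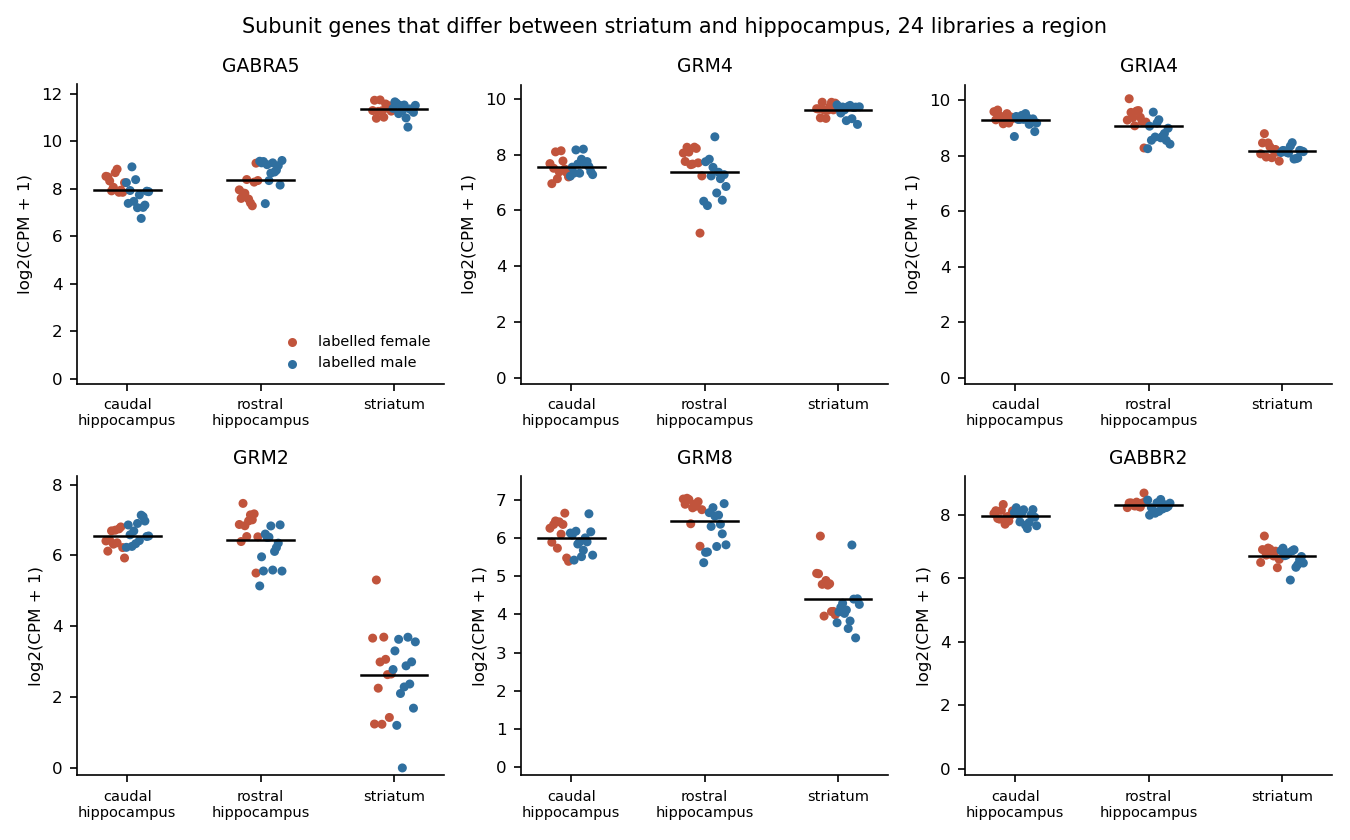
Level of 6 receptor genes, as log2(CPM + 1), in each of the 24 libraries of caudal hippocampus, rostral hippocampus and striatum; lines mark means and colors the labelled sex. GABRA5 and GRM4 lie higher in every striatum library and GABBR2 lower, while 1 striatum library of GRM2, that of bird 6, reaches 38.6 CPM.

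Of the ionotropic glutamate receptor genes 12 of 14 tested passed, 8 higher and 4 lower in striatum, beside the 64.3% of all genes. Among the AMPA genes GRIA1 was higher in striatum by 0.77 ± 0.09 (adjusted p = 9.46e-11; 22 of 24 birds), with 549.9 to 1164 CPM there and 213 to 1319 in hippocampus. GRIA4 was lower by -1.02 ± 0.07 (adjusted p = 5.06e-19, 24 of 24 birds), with 222 to 442.5 CPM in striatum and 304 to 1058 in hippocampus. Bird 6 gave the highest striatum value of GRIA4, against 353 CPM at most in the others, and the lowest of GRIA1. GRIA3 was lower by -0.40, and GRIA2 did not pass at -0.02 ± 0.04 (adjusted p = 0.643). Among the NMDA genes GRIN1 was higher by 0.74 ± 0.06 (adjusted p = 2.08e-17; 23 of 24 birds; 1780 to 2907 CPM in hippocampus, 2475 to 5733 in striatum). The GluN2 genes, which set how long the channel stays open, moved apart. GRIN2A was lower by -0.70 ± 0.11 (adjusted p = 1.3e-07; 22 of 24 birds; 39.7 to 294 CPM in hippocampus, 41.7 to 153 in striatum) and GRIN2B higher by 0.39 ± 0.09 (adjusted p = 0.000203; 18 of 24 birds).

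The kainate receptor genes, some of which act on terminals, were also mixed. GRIK1 was lower by -1.25 ± 0.09 (adjusted p = 3.35e-18; 24 of 24 birds), from 42.4 to 109 CPM in hippocampus and from 15.25 to 60.4 in striatum. GRIK2 was higher by 1.02 ± 0.07 (adjusted p = 5.89e-19, 24 of 24 birds), from 61.9 to 198 CPM and from 142 to 271. Bird 6 gave the lowest striatum value of GRIK2, and the others had 156 CPM or more. GRIK3 was higher by 0.82 ± 0.09 (adjusted p = 4.41e-11, 23 of 24 birds), from 14.6 to 107 CPM and from 35.3 to 85.9. GRIK4, a high-affinity subunit, was higher by 0.55, while GRIK5, the other high-affinity subunit, stayed at 0.00 ± 0.09 (adjusted p = 0.97). Of the delta receptors, which bind cerebellins rather than being opened by glutamate, GRID1 was higher by 0.22 ± 0.07 (adjusted p = 0.00379; 22 of 24 birds).

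Markers of cell types moved with these region differences. All 20 striatal medium spiny neuron markers were higher in striatum, where their summed level ran from 9898 to 13410 CPM, against 1820 to 5199 in hippocampus. Of 14 pallial glutamatergic neuron markers 13 were lower, of 12 GABAergic interneuron markers 8 were higher and 3 lower, and of 8 astrocyte markers tested 6 were lower. The interneuron list includes SLC32A1, GAD1 and GAD2, and most striatal neurons are GABAergic. It thus does not stand for interneurons alone. Of 5 ependyma and choroid plexus markers tested 3 were lower. No medium spiny or pallial marker was at 0 in every library of a region, while CHAT, an interneuron list gene, was at 0 in hippocampus. With the ependyma and choroid plexus markers as a covariate 26 of the 27 calls held, and the part of the other markers in the receptor differences was not tested.

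The deposited positions place several GABAA genes side by side. Of the 39 receptor gene identifiers 0 matched the species' reference gene list, while 37 symbols did. The gaps, spans and overlaps below are those of the deposited annotation and may not be the tree sparrow's own. GABRG3 and GABRA5 lie 6.48 kilobases apart on 1 strand in the deposited annotation, and both were higher in striatum, by log2 folds of 0.65 and 3.09. The cluster of GABRG1, GABRA2, GABRA4 and GABRB1 spanned 431.6 kilobases and gave -0.49, -0.49, -0.01 and 0.52. GABRA4 and GABRB1 overlap there by 770 bases on opposite strands, and since the strand setting of the counting is not given, reads of the overlap cannot be told apart and the low level of GABRB1 is uncertain. GRM2 overlaps RRP9 by 980 bases on the opposite strand; RRP9 had a mean of 0.21 CPM.

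The make-up of the families differed between regions, given as each gene's share of its family's summed CPM per kilobase in a library (mean ± SD, n = 24). Of the alpha subunits GABRA5 made up 32.3% ± 7.87 caudally, 39.3% ± 13.8 rostrally and 83.8% ± 3.52 in striatum. GRIA2 kept 63.1% to 67.2% of the AMPA sum in each region, while GRIA1 held 9.46% ± 2.01 caudally, 14.8% ± 4.29 rostrally and 20.4% ± 3.91 in striatum. GRIN2B made up 56.5% ± 4.26 of the GluN2 sum caudally, 56.3% ± 3.79 rostrally and 72.7% ± 5.64 in striatum. GRM3 was the largest metabotropic share in each region, 43.9% to 52.5%, and GRM4 went from 13.1% ± 2.94 and 12.2% ± 5.13 to 34.5% ± 4.21. These shares are a description, with no test. How well reads match may differ between gene models, so the shares are firmer between regions than between genes.

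**Figure D3:**
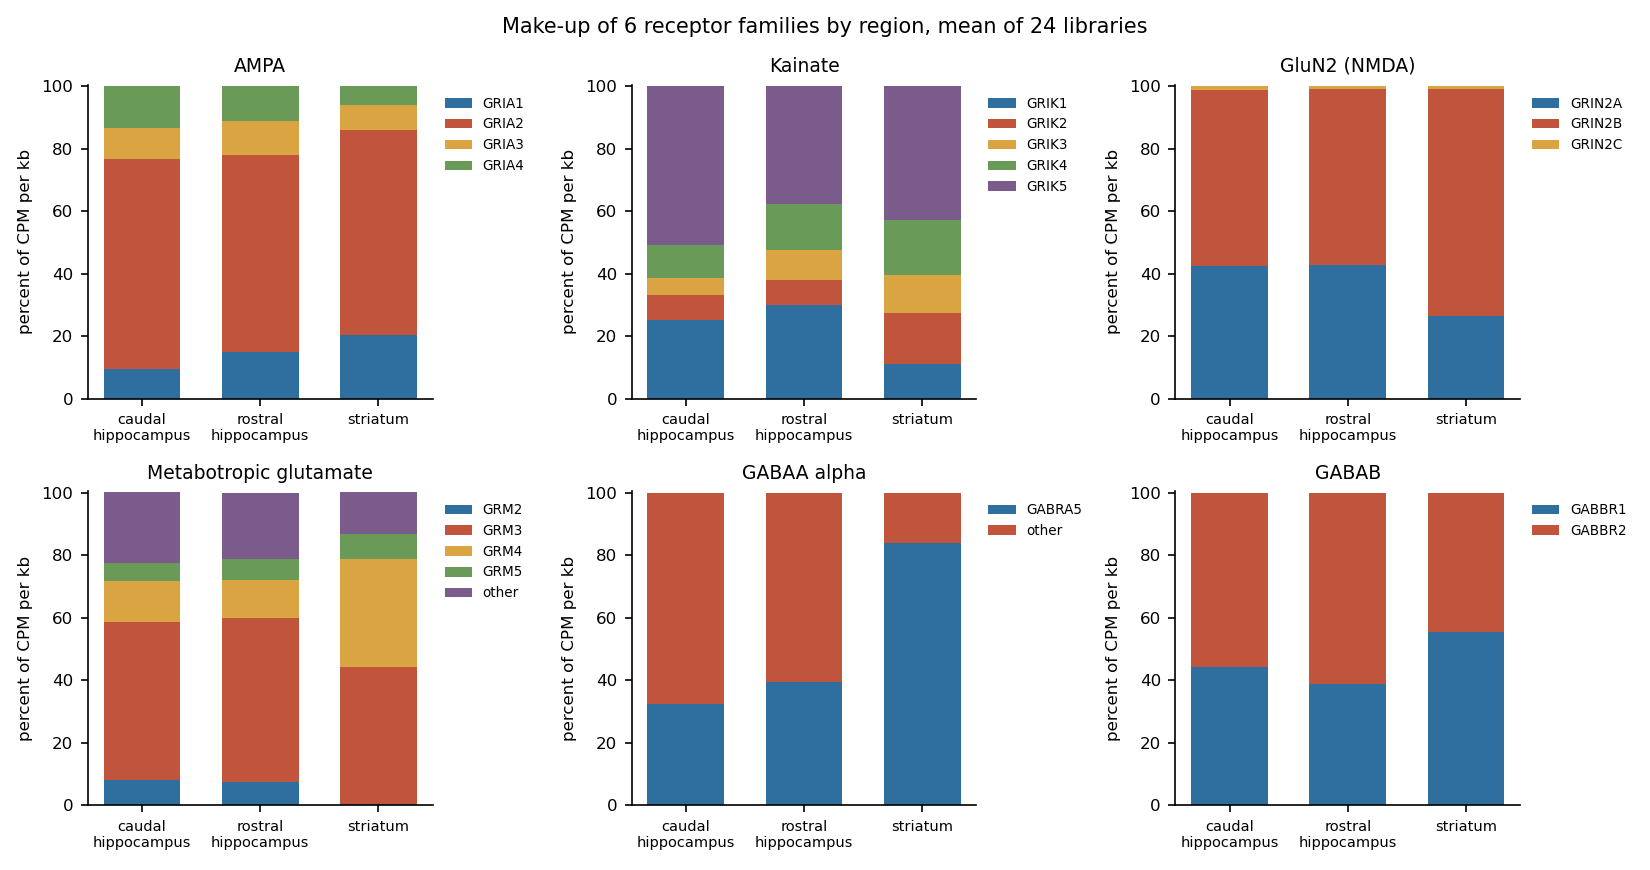
Share of each gene in its family's summed CPM per kilobase (y axis, percent; mean of 24 libraries) in caudal hippocampus, rostral hippocampus and striatum, for 6 families. The striatum column differs most in the alpha panel, where GABRA5 fills 83.8%, and in the metabotropic panel, where GRM4 fills 34.5%.

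Caudal and rostral hippocampus were compared within birds. Rostral hippocampus held more of GRIK3, GRIN2A, GRIA1, GRIN2B and GRIK4, and caudal hippocampus more of GABRB1 and GABRD. Of 34 genes 19 passed, 6 higher and 13 lower in caudal hippocampus, against 48.3% of all genes tested (24.5% higher, 23.8% lower). No receptor gene reached an absolute log2 fold of 1, which 3.49% of all genes passed, and in none were the parts free of overlap, as in 0.0103% of all genes. The median log2 fold was -0.08 over the 34 genes and 0.02 over all genes.

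GRIK3 had 14.6, 23.15 and 54.2 CPM in the lowest, median and highest caudal library and 30.9, 43.0 and 107 CPM in the rostral ones. Every rostral value lay above the caudal median, though the ranges overlapped (log2 fold -0.86 ± 0.11, adjusted p = 2.42e-08; lower in caudal hippocampus in 22 of 24 birds). GRIN2A ran from 39.7 through 117 to 173 CPM in caudal and from 91.2 through 179 to 294 in rostral libraries (-0.70 ± 0.12, adjusted p = 6.07e-06; 20 of 24 birds). GRIN2B ran from 115 through 226 to 378 and from 227 through 372 to 593 CPM (-0.68 ± 0.11, adjusted p = 1.27e-06; 20 of 24 birds). Both GluN2 genes thus were lower caudally, while GRIN1, at 0.01 ± 0.07 (adjusted p = 0.953), did not pass. GRIA1 ran from 213 through 379 to 627 CPM in caudal and from 386 through 610.1 to 1319 in rostral libraries (-0.69 ± 0.11, adjusted p = 7.37e-07; 20 of 24 birds), and GRIK4 from 18.6 through 33.1 to 45.5 and from 21.8 through 49.0 to 82.2 CPM (-0.52 ± 0.11, adjusted p = 0.00012; 17 of 24 birds).

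In the caudal direction GABRB1, a beta subunit of low level here, had 1.62, 3.13 and 9.125 CPM in the lowest, median and highest caudal library and 0, 1.95 and 3.87 in the rostral ones (log2 fold 0.68 ± 0.22, adjusted p = 0.00812; 20 of 24 birds). GABRD had 244.5, 327 and 525.5 CPM in caudal and 61.5, 266 and 503 in rostral libraries. Its rostral libraries spread far more widely, with a coefficient of variation of 51.9% against 22.5%, and the log2 fold was 0.56 ± 0.16 (adjusted p = 0.00418; higher caudally in 17 of 24 birds). GRIK5 at 0.41, GRIA4 at 0.23, GABRB2 at 0.21 and GRM7 at 0.20 were the other genes higher caudally. GRM8 at -0.45, GABRA5 at -0.44, GABBR2 at -0.34, GRIK1 at -0.29, GRM5 at -0.22, GABRA2 at -0.20 and GRIA3 at -0.20 were also lower. The 15 genes that did not pass lay between -0.22 (GABRG1) and 0.13 (GRM2). The GABRA5 difference (± 0.17, adjusted p = 0.0267; lower in 15 of 24 birds) no longer passed when any 1 of birds 3, 9, 15, 16, 17, 20, 22 and 262 was left out (log2 fold -0.40 to -0.37). Nor did it pass with the hippocampal libraries alone.

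Ependyma and choroid plexus markers moved with this comparison: of 5 tested, 3 were higher and 1 lower in caudal hippocampus, and their summed level ran from 109 to 2788 CPM there and from 116 to 322 in rostral hippocampus, with CLIC6 at 0 in both parts. Astrocyte markers were lower caudally for 5 of 8 and higher for 1, with summed levels of 2955 to 4663 and 3662 to 6267 CPM. With the choroid plexus markers as a covariate, 12 of the 19 calls held. GABRA5, GABRB1, GABRD, GRIA4, GRM5 and GRM7 were among those that no longer passed, and GABRA5 changed sign, from -0.44 to 0.10. The part of the astrocyte markers was not tested.

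Striatum and each hippocampal part were also compared singly, to order the 3 regions; 26 genes passed against caudal hippocampus (63.0% of all genes) and 27 against rostral hippocampus (62.6%). GRIA1, GRIK3 and GRIK4 were lowest in caudal hippocampus, between in rostral hippocampus and highest in striatum, with all 3 steps past the threshold. For GRIK4 the step from rostral hippocampus to striatum was 0.29 ± 0.11 (adjusted p = 0.0168) and did not pass without bird 2 (0.23). GRIN2B was lowest in caudal hippocampus, 0.73 ± 0.11 below striatum (adjusted p = 5.89e-08). For this gene rostral hippocampus and striatum did not differ beyond their spread (0.05 ± 0.11, adjusted p = 0.691). For GABRB1 and GABRG1 striatum passed against rostral hippocampus (0.86 and -0.60) but not against caudal hippocampus (0.18 and -0.39). GRIN2A was highest in rostral hippocampus, and striatum was lower than caudal hippocampus by -0.35 ± 0.12 (adjusted p = 0.0113), a step that did not pass with the choroid plexus covariate (-0.16). GABRD was highest in caudal hippocampus, but with the covariate neither step from there passed (0.34 against rostral hippocampus, -0.29 for striatum against caudal hippocampus). Striatum against rostral hippocampus gave 0.00 ± 0.18 (adjusted p = 0.999) over both sexes. The medians there were 216 and 358 CPM in libraries labelled female and 239.6 and 156 in males.

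Genes whose products accompany these receptors also changed in both directions, read from the same fits, in which 64.3% of all genes passed (30.6% higher, 33.8% lower). Of 11 AMPA receptor auxiliary genes tested, 4 were higher and 4 lower in striatum, among them GSG1L at 2.67 and SHISA6 at -2.27, proteins that tune AMPA channel closing. Of 8 kainate and delta receptor partners, 4 were higher, with the kainate auxiliary genes NETO1 at 1.84 and NETO2 at 1.57, and 4 lower, with C1QL3, a secreted synaptic organizer, at -6.04 and CBLN2, a cerebellin, at -3.09. Of 19 genes of the postsynaptic scaffold, 7 were higher (HOMER1, a scaffold that binds group I receptors, at 0.75) and 7 lower (DLGAP1 at -1.59). Of 10 genes of GABA receptor anchoring, 3 were higher, with the GABAB auxiliary KCTD12 at 0.96, and 3 lower, with NLGN2, an adhesion protein of inhibitory synapses, at -0.61. Of 14 genes of synthesis and transport, 5 were higher, with the vesicular GABA transporter SLC32A1 at 2.11 and the GABA-making enzyme GAD2 at 1.72, and 7 lower, with the vesicular glutamate transporter SLC17A6 at -4.49.

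Between the hippocampal parts, 10 of these 14 synthesis and transport genes were lower caudally and 0 higher (median log2 fold -0.39). Among them were the astrocytic glutamate transporter SLC1A3 at -0.79 and GAD1 at -0.71. This list shares SLC1A2, SLC1A3 and GLUL with the astrocyte markers and SLC32A1, GAD1 and GAD2 with the interneuron markers. It also shares SLC17A6 with the pallial markers, so these lists are not separate observations. Of the 19 scaffold genes 10 were lower and 3 higher caudally (median -0.28), with NSF, a membrane fusion factor that binds GluA2, at -0.77 and CAMK2A at -0.75. Of the AMPA auxiliary genes 3 were higher and 3 lower, of the kainate and delta partners 2 higher and 1 lower, and of the GABA anchoring genes 3 higher and 2 lower. The median over all genes was 0.02, and 48.3% of them passed (24.5% higher, 23.8% lower).

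Males and females were compared in each region, 1 library per bird. Receptor genes passed in rostral hippocampus only, which does not by itself show that the regions differ. In rostral hippocampus 4 of 33 genes passed, 1 higher (GABRA5) and 3 lower (GRIA4 among them) in the birds labelled male. Of all genes tested 5.1% passed (3.24% higher, 1.85% lower), and 2.93% of those outside the Z chromosome. An unadjusted p under 0.05 was reached there by 16 of the 33, against 19.8% of all genes. In caudal hippocampus 0 of 34 passed, against 2.71% of all genes and 0.591% of those outside the Z chromosome, and DESeq2 and limma voom also gave 0. There 9 of the 34 had an unadjusted p under 0.05, against 13.2% of all genes. The 2 smallest p there were those of GRM5 (-0.25, adjusted p = 0.0992) and GRIA2 (-0.19, adjusted p = 0.132). In striatum 0 of 34 passed, against 1.66% of all genes and 0.12% of those outside the Z chromosome, and DESeq2 and limma voom again gave 0. Only 1 of the 34 had an unadjusted p under 0.05, against 5.19% of all genes. GRM8 (-0.52, adjusted p = 0.961) and GABRG1 (-0.56, adjusted p = 0.999) had the smallest p in striatum. Leaving out 1 bird gave calls in caudal hippocampus without bird 8 (GABRA5 and GRIK2), bird 14 (GRIN1) or bird 18 (GRM5). In striatum it gave a call without bird 16 (GRM8). Calls over all genes then ran from 202 to 319 in caudal hippocampus and from 136 to 226 in striatum.

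In rostral hippocampus GABRA5 had 155, 225 and 540 CPM in the lowest, median and highest of the 11 libraries labelled female and 165, 502 and 584 CPM in the 13 males. The ranges overlapped almost fully, with bird 22 high among those labelled female and bird 8 low among the males. The log2 fold of males against females was 0.78 ± 0.20 (adjusted p = 0.0208). GRIA4 had 309, 661 and 1058 CPM in females and 304, 414 and 757 in males (-0.52 ± 0.15, adjusted p = 0.0445). These ranges overlapped as well, and the GRIA4 call was lost without any 1 of 17 birds (-0.54 to -0.43). The number of receptor genes passing fell to 2 without bird 14, 18 or 20 and came to 8, 9 and 11 without birds 261, 8 and 22. Calls over all genes moved as well, from 300 to 939 when each bird was left out, against 459 with all birds. The 4 receptor gene calls held without bird 260.

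Summed medium spiny neuron markers in rostral hippocampus ran from 2112 to 4191 CPM (median 3530) in libraries labelled female and from 1820 to 3850 (median 2697) in males. Of 17 such markers 1 passed, lower in males. Over all genes tested there, 3.24% were higher and 1.85% lower in males. Of 11 GABAergic interneuron markers 2 were higher and 1 lower in males, of 8 astrocyte markers 1 was higher, and of 3 ependyma and choroid plexus markers 1 was lower. With the last of these as a covariate the 4 calls held; the part of the other markers in the sex differences was not tested.

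The next question was whether the sexes differed unequally in the hippocampal parts, tested as a sex by part interaction within birds. GABRA5, GABRD and GRIK4 passed, 3 of 34 genes against 2.44% of all genes. In caudal hippocampus GABRA5 had 230.0, 305 and 453 CPM in the lowest, median and highest library labelled female and 107, 213.5 and 485 in males, the reverse order of the rostral medians. It was higher caudally than rostrally in 7 of 11 birds labelled female and in 2 of 13 males, and the interaction was -1.33 ± 0.27 on the log2 scale (adjusted p = 0.00679). GABRD had 244.5, 303 and 448 CPM caudally and 61.5, 358 and 503 rostrally in females, and 269, 334 and 525.5 caudally and 85.0, 156 and 410.4 rostrally in males. It was higher caudally in 5 of 11 birds labelled female and in 12 of 13 males (interaction 1.06 ± 0.28, adjusted p = 0.0317). GRIK4 had 18.6, 28.4 and 42.5 CPM caudally and 29.0, 55.55 and 82.2 rostrally in females, and 24.6, 36.4 and 45.5 and 21.8, 43.6 and 56.4 in males. It was higher rostrally in 10 of 11 birds labelled female and in 7 of 13 males (interaction 0.70 ± 0.20, adjusted p = 0.0455).

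**Figure D4:**
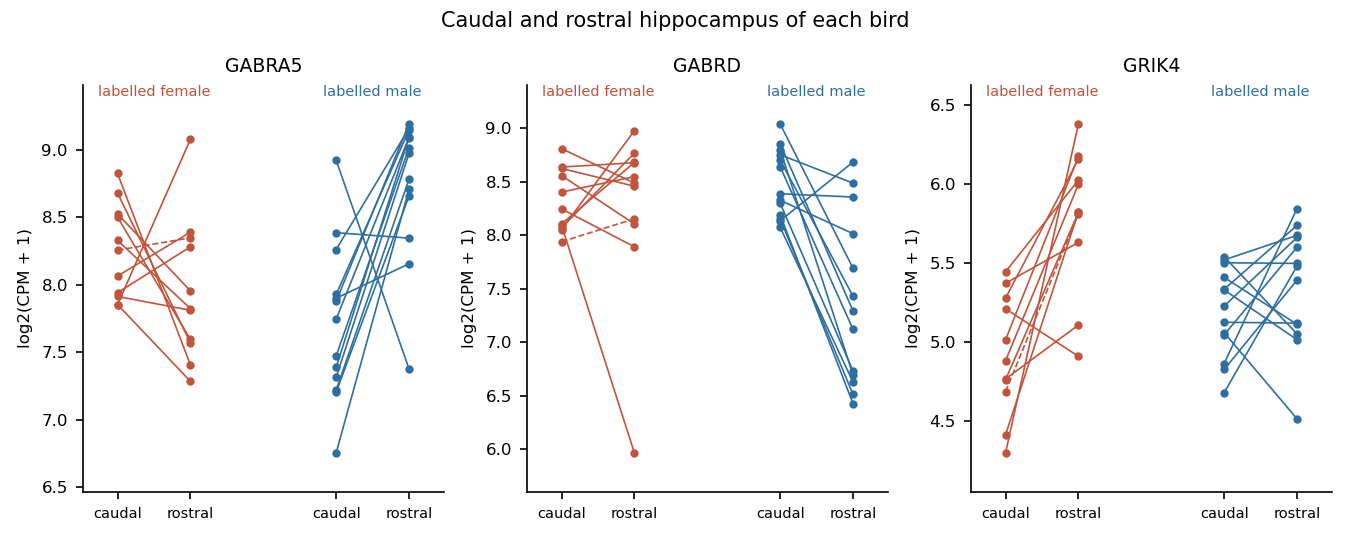
Level of GABRA5, GABRD and GRIK4, as log2(CPM + 1), in caudal and rostral hippocampus of each bird, joined by a line, with birds labelled female on the left and males on the right of each panel; the dashed line is bird 260. GABRA5 is higher rostrally in 11 of 13 males and 4 of 11 birds labelled female, and GABRD higher caudally in 12 of 13 males.

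These calls were not firm for every gene. GABRA5 passed whichever bird was left out. GABRD was lost without any 1 of 12 birds (0.98 to 1.08) and GRIK4 without any 1 of 15, bird 260 among them (0.58 to 0.72). With the hippocampal libraries alone, whose spread leaves out striatum, GABRA5 passed, while GABRD and GRIK4 did not. The count of receptor genes came to 9 without bird 8, 8 without bird 22 and 5 without bird 21. It was 1, GABRA5, without any 1 of birds 1, 2, 3, 6, 7, 9, 14, 17, 18, 19 and 20. Calls over all genes moved as well, from 65 to 620 when each bird was left out, against 238 with all birds. The summed level of ependyma and choroid plexus markers in caudal hippocampus ran from 109 to 288 CPM (median 208) in libraries labelled female. In males it ran from 114 to 2788 (median 836), with CLIC6 at 0. Of 5 such markers tested between the sexes there, 1 passed, higher in males, against 2.71% of all genes. The median log2 fold of the 5 was 0.03, so the summed level does not stand for every marker. With these markers as a covariate 0 of the 3 genes passed and 5 of all genes did, against 238 without it. The interactions kept their direction at -1.01 for GABRA5, 0.95 for GABRD and 0.66 for GRIK4. Other marker lists moved in the interaction test too, where 2.44% of all genes passed. Of 20 medium spiny neuron markers 3 were higher (median 0.44 on the log2 scale), and of 6 oligodendrocyte markers 1 was higher (median 0.43). Of 14 pallial, 12 interneuron and 8 astrocyte markers 1 each was lower. The part of these lists was not tested. The sex by striatum interaction gave 0 receptor genes, where 0.0% of all genes passed, and DESeq2 and limma voom gave 0 too. At an unadjusted p under 0.05 it gave 2 receptor genes of 34, against 3.61% of all genes. GRIA4 was there at 0.25 (adjusted p = 1.0).

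Receptor genes also varied together among the rostral libraries. GABRA5 was set against each of the other 33 genes tested and 9 marker sums in each region, on log2(CPM + 1), 126 relations in all, each over 24 libraries of 24 birds; GABRA5 was chosen for this after its values had been seen. In rostral hippocampus 2 genes rose with it and 11 fell as it rose, with an adjusted p under 0.05 for both Pearson's r and Spearman's rho (two-sided permutation tests, 100000 resamples), against 4 genes in caudal hippocampus and 1 in striatum. An absolute r of at least 0.6 with GABRA5 was reached by 12 of 33 receptor genes and by 13.2% of all 9753 genes in rostral hippocampus, by 4 and 3.15% in caudal hippocampus, and by 3 and 3.07% in striatum.

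GABRD gave r = -0.89 and rho = -0.92 with GABRA5 in rostral hippocampus (permutation p = 1e-05 for each, the smallest that 100000 resamples can give, adjusted p = 0.00021). Without the 2 libraries farthest from the GABRA5 median r was -0.89, and it was -0.90 within females and -0.82 within males. GRIA4 gave r = -0.88 and rho = -0.90 (permutation p = 1e-05, adjusted p = 0.00021), r of -0.90 without the 2 farthest libraries, and r of -0.85 within females and -0.81 within males. GRIA1 rose with it, at r = 0.79 and rho = 0.79 (permutation p = 2e-05 and 3e-05, adjusted p = 0.00036 and 0.000472), with 0.73 without the 2 farthest libraries, 0.86 within females and 0.72 within males. Libraries rich in GABRA5 thus held more GRIA1 and less GABRD, GRIA4, GRM8 (r = -0.83) and GRM2 (r = -0.77), and the sign was the same within each labelled sex. For GRM8 and GRM2 Spearman's rho was -0.84 each, and the adjusted permutation p was 0.00021 to 0.00063.

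**Figure D5:**
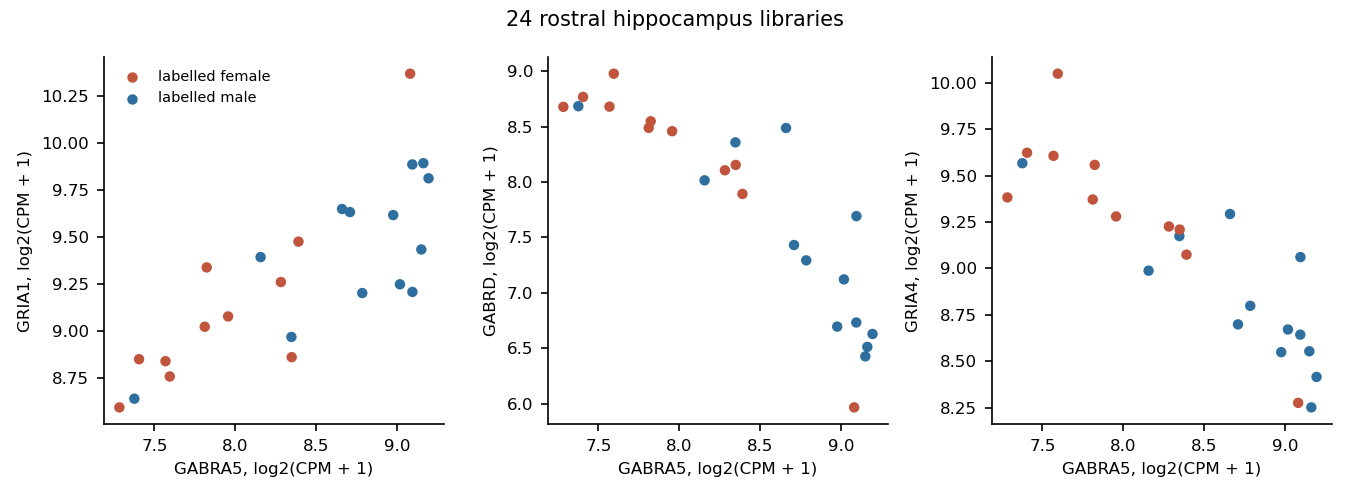
GABRA5 (x axis) against GRIA1, GABRD and GRIA4 (y axes), all as log2(CPM + 1), in the 24 rostral hippocampus libraries, colored by labelled sex. GRIA1 rises with GABRA5 (r = 0.79), and GABRD (r = -0.89) and GRIA4 (r = -0.88) fall as it rises.

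In caudal hippocampus GABRD again fell as GABRA5 rose (r = -0.68, rho = -0.64, permutation p = 0.00036 and 0.00106, adjusted p = 0.00349 and 0.00932; r = -0.67 without the 2 farthest libraries). So did GRM2 (r = -0.74, rho = -0.67, permutation p = 5e-05 and 0.00044, adjusted p = 0.00063 and 0.00426), which held within males (-0.92) and was weak within females (-0.24). In striatum GRIA2 rose with GABRA5 (r = 0.73, rho = 0.69, permutation p = 5e-05 and 0.00029, adjusted p = 0.00063 and 0.00304; r = 0.58 without the 2 farthest libraries), and so did the medium spiny neuron marker sum (r = 0.61, rho = 0.62, adjusted permutation p = 0.00865 and 0.0127). In rostral hippocampus the medium spiny neuron and the oligodendrocyte marker sums both fell as GABRA5 rose (r = -0.64 for each, rho = -0.64 and -0.59, adjusted permutation p = 0.00683 for each r and 0.00932 and 0.0184 for rho). Within females and males r with the medium spiny neuron sum was -0.71 and -0.36 in rostral hippocampus and 0.87 and 0.38 in striatum. For the oligodendrocyte sum in rostral hippocampus it was -0.59 and -0.44. The part of these marker sums in the relations between genes was not tested.

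Differences among birds of 1 sex that the 3 regions shared were tested last. GRM8, GABBR1 and GRM3 passed, 3 of 34 genes, where 12.9% of all genes did. GRM8 had F = 2.84 (adjusted p = 0.0148), GABBR1 F = 2.68 (adjusted p = 0.0212) and GRM3 F = 2.60 (adjusted p = 0.026). GABBR1 was lost without bird 4 (F = 2.04) and also with birds 11 and 260 both left out. GRM3 was lost without bird 17 (F = 2.29). GABRA5 did not pass (F = 0.66, adjusted p = 0.909).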

How the data were processed

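RNA of 72 libraries was sequenced. HISAT2 and StringTie were used, per the submitters' processing notes, with no version named; for the genome build, the counting tool and the strand setting, the sources used here name nothing. The authors deposited whole-number counts per gene, not normalized, with names, positions and gene lengths. Of the 39 receptor gene identifiers 0 matched the reference gene list of the species and 37 symbols did. The deposited positions and gene lengths may thus not be the tree sparrow's own. Total counts of 2629433 to 5323201 per library set the precision. Over 399 pairs of libraries of 1 group the counts differed beyond sampling noise, with a chi-square of at least 5.87 times its degrees of freedom.

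Counts were tested with edgeR 4.0.16 in R 4.3.3: TMM scaling, filterByExpr (minimum count 10, minimum total 15), robust quasi-likelihood fits over all genes and Benjamini-Hochberg adjustment over all genes tested, with a threshold of 0.05. Region and interaction fits used all 72 libraries with bird as a block, since the labels' bird numbers tie the 3 regions of a bird. The median correlation of same-bird deviations was 0.160, 0.136 and 0.152 for the 3 region pairs, and -0.0065, -0.0037 and -0.0036 when the birds differed. The tie was weak: the lowest same-bird values were -0.097, -0.070 and 0.020. In 10, 9 and 14 of 24 birds the best match was the bird's own library. The sex tests were run region by region. SE is the absolute log2 fold divided by the root of F. CPM are TMM-scaled counts per 1000000. P-values of the sex tests rest on the spread between birds of a labelled sex. Those of the region, interaction and bird tests rest on the spread left after the bird and region terms. That spread is pooled over the 3 regions, striatum included. For the hippocampal parts it is thus not the spread of caudal minus rostral differences between birds alone.

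Alternatives were DESeq2 size factors, other filters, DESeq2 1.42.0, limma voom (limma 3.58.1), a choroid plexus marker covariate, no bird block, hippocampal libraries alone, and each bird left out, with the dispersion trend of the fit on all birds. Fits were also run on counts simulated from the fitted model with the same spread in every region. Such counts cannot show how the fits behave where the spread differs between regions. Members, lists and alternatives were chosen with earlier results of these data known. Genes were given in full when they passed with an absolute log2 fold of at least 0.5 and a mean of at least 1 CPM, at most 10 per direction, with every call or the 2 smallest p in sex, interaction and bird tests, and at most 4 per direction of each other list. Results for some receptor genes are not reported here, though the counts of genes include them.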

Additional observations from a re-analysis of the deposited data

Results flagged for a closer look

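Of the receptor genes, 3 passed the interaction test within birds for an unequal sex difference in caudal and rostral hippocampus. Of 33 alternatives, 1 lost the GABRA5 call, that with the choroid plexus covariate. The GABRD call was lost in 16 and the GRIK4 call in 19, limma voom among the latter. On the log2 scale of males minus females for caudal minus rostral hippocampus, GABRA5 was at -1.33, GABRD at 1.06 and GRIK4 at 0.70. In birds labelled female, the mean caudal minus rostral difference in log2(CPM + 1) was 0.29 ± 0.76 for GABRA5, 0.07 ± 0.82 for GABRD and -0.88 ± 0.64 for GRIK4 (SD, n = 11). In males it was -1.03 ± 0.96, 1.10 ± 0.80 and -0.17 ± 0.50 (SD, n = 13).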

How the results depend on the processing

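The other settings were chosen with earlier results of these data known, and 1 (birds 11 and 260 both left out) was added later. Under these settings direction and call held for 26 of 27 receptor genes between striatum and hippocampus, with GABRG1 the exception. They held for 12 of 19 between the hippocampal parts. With the choroid plexus marker covariate GABRG1 went from -0.49 to 0.11 and GABRA5 between the hippocampal parts from -0.44 to 0.10; the cause was not tested. In rostral hippocampus DESeq2 called 9 receptor genes between the sexes where edgeR called 4. For the sex by part interaction, 3 calls became 1 without a filter on low counts, 7 with DESeq2 and 0 with the covariate (log2 values -1.01, 0.95 and 0.66), and calls over all genes went from 238 to 129, 452 and 5. Over all genes, sex calls in rostral hippocampus went from 459 to 707 with DESeq2, and in caudal hippocampus from 240 to 113 with the covariate; leaving out each bird gave 300 to 939 in rostral hippocampus, 136 to 226 in striatum and 65 to 620 for the interaction, and without birds 11 and 260 striatum went from 145 to 246. For striatum against caudal hippocampus 21 of 26 calls held with the covariate, GABRD, GRIN2A, GABRA2 and GABRG3 being among those lost. Leaving out each bird gave 26 to 28 receptor genes for striatum against hippocampus, 18 to 19 for caudal against rostral hippocampus, 26 to 27 and 24 to 28 for striatum against each part, 0 to 2, 2 to 11 and 0 to 1 between the sexes in caudal hippocampus, rostral hippocampus and striatum, 1 to 9 for the sex by part interaction, 0 for the sex by striatum interaction, and 2 to 4 among birds. Without the replicate block of birds 28, 19, 26 and 27 receptor genes passed between regions and 2 (without GABRD) and 0 in the interactions, where calls over all genes went from 238 to 146; no other call of a receptor gene was lost without the block. With the hippocampal libraries alone 18 of 19 calls between the parts held, without GABRA5, and of the 3 interaction calls GABRA5 held. DESeq2 size factors and DESeq2 lost GRM7 and GRID1 between striatum and rostral hippocampus. Leaving out any 1 of 14 birds also lost GRM7 there, and any 1 of 9 birds lost GRID1. The filter of at least 1 CPM in 12 libraries kept more genes than the main one, so no stricter filter was run. Counts near 0 kept GABRA6, GABRR1, GABRR3, GRIN2C and GRIN3B out of the main tests, so whether they differ was not tested there.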
